A study of Mus musculus with 2 samples.

Results

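Of 46095 gene entries in the table, 64 had at most 2 counts in the library labelled P2X1 knockout (P2X1-KO) and at least 50 in the library labelled wild type (WT). Predicted genes, unnamed models, pseudogene suffixes and a set of gene families and single genes had been left out by name, and values are given below for 63 of the 64. RNA sequencing was done on mouse acute myeloid leukaemia cells that the labels call leukaemia-initiating cells, sorted from bone marrow by the surface proteins Mac1 and KIT. The P2X1-KO-labelled library came from C57BL/6 mice aged 8 weeks with the genotype field P2x1-KO, and the WT-labelled library came from C57BL/6 mice aged 8 weeks with the genotype field wild type. The protocol text also calls the samples P2X1-KD and P2X1-Scr, and the labels do not say whether a library is 1 animal or a pool. P2rx1 encodes P2X1, a cation channel of the plasma membrane that opens when ATP binds it. Values below are given "under" the label of the library they come from.

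There was 1 library per group, so nothing below has a replicate check and no test between conditions was possible. The P2X1-KO-labelled library held 9447894 counts and the WT-labelled library 14658620 counts. CPM are counts per 1000000 of the effective library size, which was set by TMM, a trimmed mean of the log ratios between libraries. By those sizes, 50 counts under the WT label correspond to 28.5 counts under the P2X1-KO label at the same CPM. Intervals are exact 95% intervals that cover counting error only. In a bulk sample, fewer cells of a type and less RNA per cell cannot be told apart.

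The targeted transcript went against the label. P2rx1 had 45 counts (32.8 to 60.2), or 5.07 CPM, under the P2X1-KO label, against 27 counts (17.8 to 39.3), or 1.73 CPM, under the WT label. It was 2.93-fold higher under the P2X1-KO label (1.78 to 4.90), so each direction below is one between libraries as labelled. The genes of both sort markers were read. Kit, the stem cell factor receptor, had 19.9 CPM under the P2X1-KO label and 13.3 CPM under the WT label, and Itgam, encoding the Mac1 alpha chain, had 504 CPM under the P2X1-KO label and 307 CPM under the WT label. Over all 13382 genes averaging 1 CPM or more, 12.8% were 2-fold or more lower under the P2X1-KO label and 14.2% 2-fold or more higher, on the log2(CPM + 0.5) scale used for every such count below. Of 12 neutrophil marker genes, 10 were 2-fold or more higher under the P2X1-KO label. Of the others, Csf3r was 1.65-fold higher (1.54 to 1.77) and Ly6g 1.72-fold lower (1.17 to 2.59). The summed level of the 12 was 14305 CPM under the P2X1-KO label against 3598 CPM under the WT label. All 12 monocyte and macrophage marker genes listed were 2-fold or more higher, with sums of 5696 CPM under the P2X1-KO label and 436 CPM under the WT label. Of these sums, Lyz2 alone gave 4207 CPM under the P2X1-KO label and 170 CPM under the WT label. The part of these differences in cell makeup in the results below was not tested.

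The 63 genes are no pathway. They were chosen by their counts in these same 2 libraries, so their low values under the P2X1-KO label are the choice itself and are described without a test. As background, some of the encoded proteins are best known from other tissues, such as melanophilin from pigment cells, stabilin-2 from sinusoidal endothelium and RGS9 from retina and striatum. How the members as a group are spread over tissues was not tested. Leukaemia-initiating cells are the cells of a leukaemia that can start it anew after transfer, and the sort markers are those of immature cells (KIT) and of myeloid cells (Mac1).

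The members gave 24 counts in sum under the P2X1-KO label and 7161 under the WT label, which is 0.000254% of the counts of the P2X1-KO-labelled library and 0.0489% of those of the WT-labelled library. In the P2X1-KO-labelled library, 47 members had 0 counts, 8 had 1 count and 8 had 2 counts. In the WT-labelled library their counts ran from 51 to 612 with a median of 79, and 38 of the 63 lay under 100. The median log2 difference in CPM (pseudocount 0.5) was -3.46, beside a median of -0.06 over all genes averaging 1 CPM or more. The rule was met by 0.312% of the entries with at least 1 count, and by 0.671% of the 9540 entries with at least 50 counts under the WT label and no excluded name.

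More genes were at exactly 0 than at 1 or 2 counts. Among the 9540 entries well counted under the WT label, the P2X1-KO-labelled library had 48 at 0 counts, 8 at 1, 8 at 2, 18 at 3, 16 at 4 and 19 at 5. In the mirrored case, 8910 entries had at least 50 counts under the P2X1-KO label and no excluded name. Of these the WT-labelled library had 7 at 0 counts, 4 at 1, 2 at 2, 3 at 3, 3 at 4 and 9 at 5. The mirrored rule thus found 13 genes. The P2X1-KO-labelled library is the shallower one, so at least 50 counts are harder to reach in it and at most 2 counts easier. The 2 rules are therefore not equally strict, and 64 and 13 are not numbers at equal depth. With WT counts first scaled to the total of the P2X1-KO-labelled library, 36 genes met the rule for members. That scaling used total counts and not the TMM sizes. The mirrored rule was not rescaled, so 36 and 13 are not at equal depth either. The part of depth in the difference between the 2 rules was not tested.

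**Figure D1:**
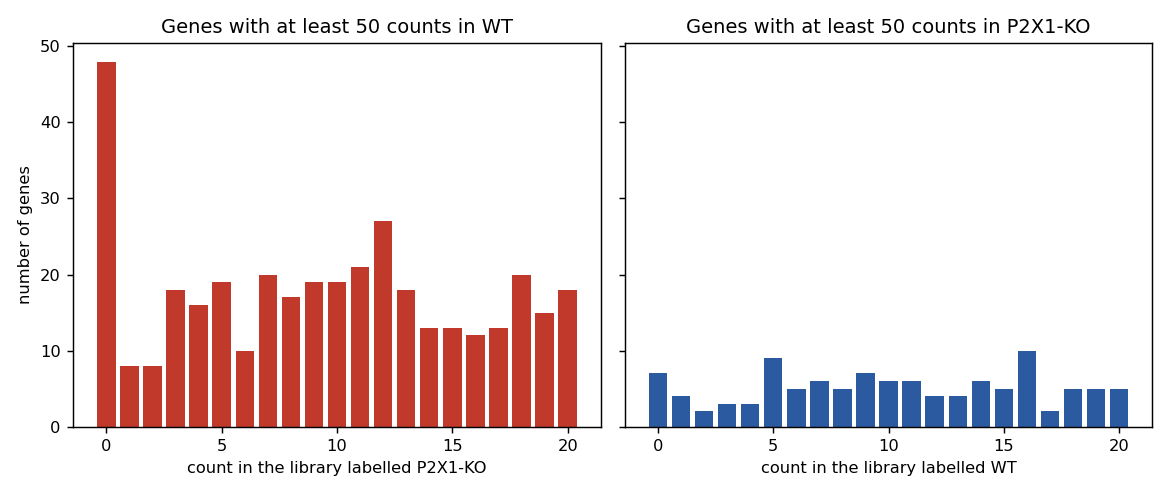
Number of genes (vertical axis) by count from 0 to 20 (horizontal axis) under the P2X1-KO label among genes with at least 50 counts under the WT label (left), and under the WT label among genes with at least 50 counts under the P2X1-KO label (right). Genes with an excluded name are left out of both panels. The left panel has 48 genes at 0 and 8 at 1, and the right panel 7 at 0 and 4 at 1.

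At the edge of the rule the values were continuous on the WT side. Just inside it, Fitm2 had 0 counts under the P2X1-KO label and 51 under the WT label, Mttp had 2 under the P2X1-KO label and 51 under the WT label, and Stx1a had 1 under the P2X1-KO label and 52 under the WT label. Just outside it, 11 genes had at most 2 counts under the P2X1-KO label and 45 to 49 under the WT label, among them Hydin with 0 under the P2X1-KO label and 49 under the WT label and Tet1 with 0 under the P2X1-KO label and 45 under the WT label. Of the genes with 3 counts under the P2X1-KO label, the highest under the WT label were C2cd4b with 292, Uggt2 with 245, LOC108168967 with 214 and Vash1 with 171.

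Upstream sequences are shown for 3 members to let the motifs counted below be seen in place, C2cd4a with a TATA motif, Tgif2 with several GC boxes (written on either strand) and Mlph with a GC box and E-boxes. Each is the 250 bases before the annotated start from RefSeq (GRCm38.p6, the assembly of mm10), 5′ to 3′ on the strand of the gene, with capitals marking matches to the motifs searched on either strand.
C2cd4a, chr9:67832331-67832580, minus strand: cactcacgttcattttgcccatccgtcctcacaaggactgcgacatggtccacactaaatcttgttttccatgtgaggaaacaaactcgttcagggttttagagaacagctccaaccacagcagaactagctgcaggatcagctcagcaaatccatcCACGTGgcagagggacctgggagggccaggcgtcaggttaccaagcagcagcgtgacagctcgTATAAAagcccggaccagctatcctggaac
Tgif2, chr2:156839757-156840006, plus strand: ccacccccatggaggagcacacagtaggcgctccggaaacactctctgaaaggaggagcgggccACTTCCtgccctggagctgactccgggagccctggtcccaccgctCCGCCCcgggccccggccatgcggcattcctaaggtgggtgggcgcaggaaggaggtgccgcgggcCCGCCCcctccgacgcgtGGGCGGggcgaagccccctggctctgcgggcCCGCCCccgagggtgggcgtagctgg
Mlph, chr1:90914850-90915099, plus strand: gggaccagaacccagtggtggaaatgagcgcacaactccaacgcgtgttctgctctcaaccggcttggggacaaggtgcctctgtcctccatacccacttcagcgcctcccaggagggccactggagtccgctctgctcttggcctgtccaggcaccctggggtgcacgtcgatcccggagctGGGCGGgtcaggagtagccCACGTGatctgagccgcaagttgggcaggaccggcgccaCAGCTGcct
In C2cd4a the TATAAA match began at -30 and a CACGTG match, an E-box, at -93. In Mlph the matches were GGGCGG at -67, CACGTG at -48 and CAGCTG at -9.

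The upstream windows of the members had about the GC content of other genes read under the WT label and a lower ratio of observed to expected CpG pairs. A window was found for 46 of the 63 members, and the first listed window of each gene was read. Their median GC content was 59.6%, beside 60% over 7412 other genes with at least 50 counts under the WT label and 52.0% over all 27025 genes of the promoter table. Their median ratio of observed to expected CpG pairs was 0.495, beside 0.758 and 0.378 in those sets. The GC box GGGCGG was found in 54.3% of member windows, 61.1% of the other well-read genes and 32.9% of all genes. TATAAA was found in 8.70% of member windows, 5.64% of the other well-read genes and 13% of all genes, and CACGTG in 6.52%, 8.76% and 6.05%.

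CAGCTG, another E-box, stood in 17.4%, 10.8% and 12.8% of the member windows, other well-read genes and all genes, and CCAAT in 26.1%, 37.2% and 34.5%. The ETS core GGAAGT was found in 21.7% of member windows and 25.3% of the other well-read genes. The shares of the same 3 sets were 8.70%, 10.5% and 13.8% for TGACCT, and 4.35%, 5.33% and 2.88% for GACGTCA.

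The motif TGACTCA, known as the AP-1 site, was in 0 of the 46 member windows and in 2.68% of the windows of the other well-read genes. The remaining motif searched was AGATAAG, a sequence that GATA factors bind. It was in 0 of the same 46 windows and in 1.46% of those of the other well-read genes. The table lists 61 windows for the 46 members, since 11 of them have more than 1, and AGATAAG was in 1 of the 61, a further window of Mfap3l. These matches are a description of letters, and no match says nothing of a factor.

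Surface receptors made up 10 members, 7 of them at 0 counts under the P2X1-KO label. Sorcs2, a sortilin-related receptor of the VPS10 family that binds proneurotrophins, lies on chromosome 5 from 36017180 to 36398139 (minus strand). It had 0 counts under the P2X1-KO label and 276 (244 to 311), or 17.7 CPM, under the WT label. It was at least 52.4-fold lower against a floor of 3 counts under the P2X1-KO label, and the exact interval began at 42.3. Floors of this kind are used for every "at least" below. The floor lies under the 3.69 counts that 0 allows by the exact interval. Each such value is therefore above the start of its exact interval and is no limit by that interval. Its relatives Sort1 and Sorl1 were well read in both libraries, Sort1 at 227 CPM under the P2X1-KO label and 212 CPM under the WT label, and Sorl1 at 212 CPM under the P2X1-KO label and 341 CPM under the WT label. Sorcs1 and Sorcs3 had 0 counts in both libraries.

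Fcrl5, an Fc receptor-like protein known from B cells, had 0 counts under the P2X1-KO label and 171 under the WT label, at least 32.5-fold lower. Its neighbour Fcrl1 was the only other gene with that symbol stem averaging 1 CPM or more. Fcrl1 had 7 counts under the P2X1-KO label and 70 under the WT label, 5.70-fold lower (2.62 to 14.7). Of 12 B cell marker genes, none of them a member, Cd79b had 47.4 CPM under the P2X1-KO label and 14.7 CPM under the WT label, out of a summed level of 50.7 CPM under the P2X1-KO label and 18 CPM under the WT label. Cd79a, its partner in the B cell receptor, had 1.69 CPM under the P2X1-KO label and 1.73 CPM under the WT label. Stab2, the scavenger receptor stabilin-2, had 0 counts under the P2X1-KO label and 133 (111 to 158) under the WT label, at least 25.3-fold lower. Its relative Stab1, made by macrophages, went the other way, at 99.1 CPM under the P2X1-KO label and 8.08 CPM under the WT label, 12.3-fold higher (10.2 to 14.9). Cdon, a co-receptor of Hedgehog signalling, had 0 counts under the P2X1-KO label and 106 under the WT label, at least 20.1-fold lower.

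The other receptors had fewer counts. Cxadr, the coxsackievirus and adenovirus receptor of tight junctions, had 1 count under the P2X1-KO label and 149 under the WT label. It shares exonic sequence with Btg3 on the opposite strand, which had 8 counts under the P2X1-KO label and 98 under the WT label, so their reads cannot be assigned with certainty. Ednra, the endothelin A receptor, had 0 counts under the P2X1-KO label and 70 under the WT label. Klra17, an immune receptor of the Ly49 family with close paralogs, had 0 counts under the P2X1-KO label and 66 under the WT label, while its relative Klra2 had 439 under the P2X1-KO label and 36 under the WT label. Itgad, an integrin alpha chain that pairs with beta 2, had 2 counts under the P2X1-KO label and 61 under the WT label. Its neighbour Itgax, another such alpha chain, was 2.93-fold higher under the P2X1-KO label (2.24 to 3.86). Vldlr, a receptor for reelin and lipoproteins, had 1 count under the P2X1-KO label and 55 under the WT label, and Lypd6, a Ly6-domain protein, had 0 under the P2X1-KO label and 55 under the WT label.

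Other membrane proteins were 6 members, each at 0 counts under the P2X1-KO label. Tmem215 had 208 counts (181 to 238) under the WT label and was at least 39.5-fold lower under the P2X1-KO label. Tmem102 had 204 (177 to 234) and was at least 38.7-fold lower. Ncmap, a protein of non-compact myelin, had 148 (125 to 174) and was at least 28.1-fold lower. The tetraspanin gene Tspan8 and the gene Tmem198 had 55 counts each under the WT label, and Mfap3l had 103.

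Secreted and matrix proteins and surface enzymes were 5 members. Cpxm1, a carboxypeptidase-like secreted protein, had 0 counts under the P2X1-KO label and 218 (190 to 249) under the WT label, at least 41.4-fold lower. Svep1, a large extracellular matrix protein that binds integrins, had 0 counts under the P2X1-KO label and 192 (166 to 221) under the WT label, at least 36.5-fold lower. Akp3, an intestinal-type alkaline phosphatase, had 0 counts under the P2X1-KO label and 107 (87.7 to 129) under the WT label, at least 20.3-fold lower. Wnt9b, a WNT ligand, had 0 counts under the P2X1-KO label and 53 under the WT label, and Aoc3, an amine oxidase on vascular surfaces, had 1 count under the P2X1-KO label and 66 under the WT label.

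**Figure D2:**
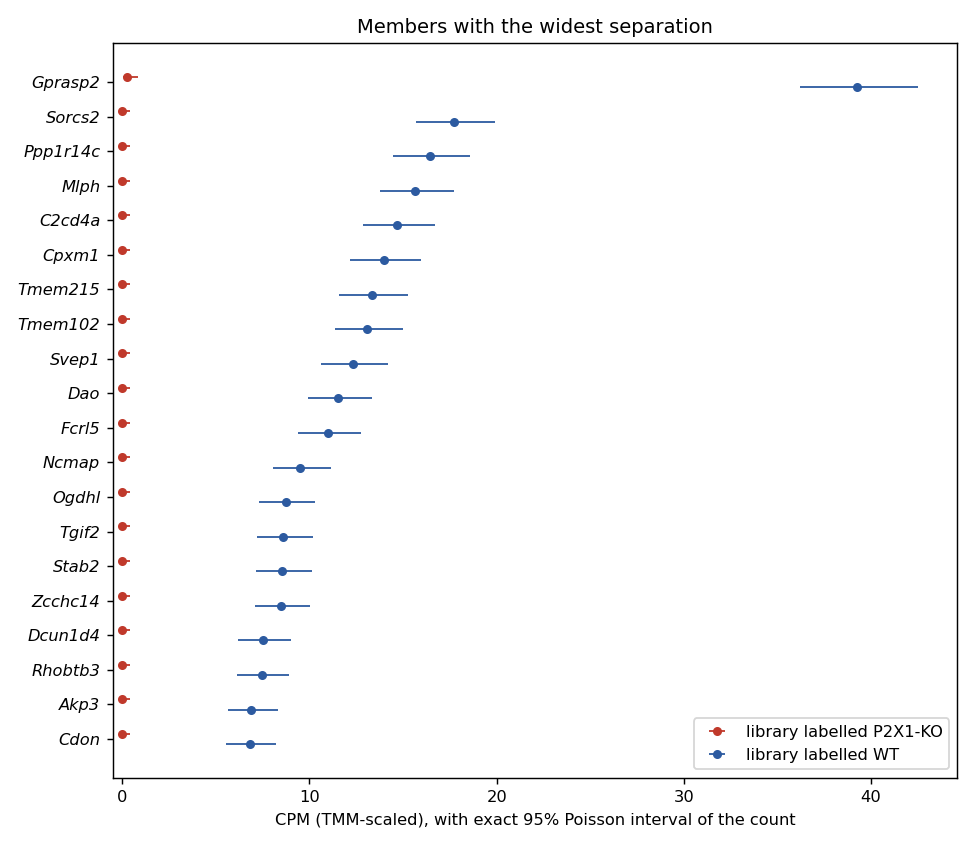
CPM (horizontal axis) of the 20 members whose intervals stand farthest from no change, under the P2X1-KO label (red, upper point of each row) and under the WT label (blue, lower point), with exact 95% Poisson intervals of the counts. Gprasp2 is at 0.225 CPM under the P2X1-KO label and 39.3 CPM under the WT label, and the other 19 are at 0 under the P2X1-KO label.

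Signalling proteins that act through phosphatases, cyclic nucleotides or small GTPases were 9 members, 8 of them at 0 counts under the P2X1-KO label. Ppp1r14c, an inhibitor of protein phosphatase 1, lies on chromosome 10 from 3366057 to 3464975 (plus strand). It had 0 counts under the P2X1-KO label and 256 (226 to 289), or 16.4 CPM, under the WT label, at least 48.6-fold lower. Further regulators of the same phosphatase were members, Ppp1r9a (neurabin) with 1 count under the P2X1-KO label and 96 under the WT label, and Ppp1r1c with 0 under the P2X1-KO label and 57 under the WT label. Among 9 other phosphatase 1 subunits and inhibitors from a list of that enzyme that averaged 1 CPM or more, 0 were 2-fold or more lower and 1, Ppp1r11, was 2.27-fold higher (1.96 to 2.63). Among all 26 other genes with the Ppp1r stem at that level, 5 were 2-fold or more lower and 3 2-fold or more higher. Ppp1r14b, another gene of the same subfamily, had 48.3 CPM under the P2X1-KO label and 67.5 CPM under the WT label.

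Of the 3 genes of the RHOBTB family, Rhobtb1 and Rhobtb3 are members and so low under the P2X1-KO label by the rule itself. Rhobtb3 had 0 counts under the P2X1-KO label and 116 (95.9 to 139) under the WT label, at least 22.0-fold lower, and Rhobtb1 had 0 under the P2X1-KO label and 56 under the WT label. Rhobtb1 shares exonic sequence with A930033H14Rik on the opposite strand, which had 0 counts under the P2X1-KO label and 33 under the WT label. Rhobtb2, which the rule did not choose, had 10.8 CPM under the P2X1-KO label and 29.9 CPM under the WT label, 2.77-fold lower (2.22 to 3.48). Pde9a, a phosphodiesterase that hydrolyses cyclic GMP, had 0 counts under the P2X1-KO label and 78 under the WT label. Of 12 other phosphodiesterase genes averaging 1 CPM or more, 3 were 2-fold or more lower and 1 2-fold or more higher, and Pde3b was 21.6-fold lower (17.7 to 26.5), with 103 counts under the P2X1-KO label and 3897 under the WT label. Rgs9, which speeds GTP hydrolysis by G proteins, had 0 counts under the P2X1-KO label and 58 under the WT label, whereas 4 of 10 other Rgs genes were 2-fold or more higher and 1 2-fold or more lower. Rragd, a Rag GTPase of amino acid sensing by mTORC1, had 0 counts under the P2X1-KO label and 93 under the WT label, and the phosphatase gene Dusp18 had 0 under the P2X1-KO label and 53 under the WT label.

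Proteins of trafficking, junctions and the cytoskeleton were 9 members, of which 4 were at 0 counts under the P2X1-KO label. Gprasp2, which binds G protein-coupled receptors and sorts them after uptake, lies on chromosome X from 135839034 to 135844730 (plus strand). It had 2 counts (up to 7.22), or 0.225 CPM, under the P2X1-KO label and 612 (564 to 662), or 39.3 CPM, under the WT label, a ratio of 174 (48.1 to 1443). It overlaps exons of Bhlhb9 on the same strand, which had 8 counts under the P2X1-KO label and 306 under the WT label, so reads may be shared. Mlph, melanophilin, which links RAB27A on melanosomes to myosin Va, lies on chromosome 1 from 90915085 to 90951142 (plus strand). It had 0 counts under the P2X1-KO label and 244 (214 to 277), or 15.6 CPM, under the WT label, at least 46.3-fold lower. Its partner genes were read in both libraries and were higher under the P2X1-KO label, Rab27a at 267 CPM under the P2X1-KO label and 157 CPM under the WT label, and Myo5a at 119 CPM under the P2X1-KO label and 68.9 CPM under the WT label. Gphn, encoding gephyrin, which anchors inhibitory neurotransmitter receptors and also makes molybdenum cofactor, had 2 counts under the P2X1-KO label and 201 under the WT label, a ratio of 57.3 (15.6 to 476).

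Junction proteins in this group were Plekha7 of adherens junctions, with 0 counts under the P2X1-KO label and 78 under the WT label, Kazn (kazrin) with 1 under the P2X1-KO label and 79 under the WT label, and Ctnnal1, a relative of alpha-catenin, with 0 under the P2X1-KO label and 77 under the WT label. Stx1a, a SNARE protein of synaptic vesicle fusion, had 1 count under the P2X1-KO label and 52 under the WT label. Of 13 other syntaxin genes averaging 1 CPM or more, 0 were 2-fold or more lower and 1 was 2-fold or more higher. Mapt, encoding the microtubule-binding protein tau, had 0 counts under the P2X1-KO label and 53 under the WT label, and Lzts1, a leucine zipper protein, had 1 under the P2X1-KO label and 53 under the WT label.

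Metabolic enzymes and lipid-handling proteins were 6 members. Dao, D-amino acid oxidase, had 0 counts under the P2X1-KO label and 180 (155 to 208) under the WT label, at least 34.2-fold lower. Ogdhl, a relative of the 2-oxoglutarate dehydrogenase of the citric acid cycle, had 0 counts under the P2X1-KO label and 136 (114 to 161) under the WT label, at least 25.8-fold lower. Mttp, which loads lipid onto apolipoprotein B, had 2 counts under the P2X1-KO label and 51 under the WT label, and Fitm2, a protein of lipid droplet formation, had 0 under the P2X1-KO label and 51 under the WT label. Mttp shares exonic sequence with Trmt10a on the opposite strand. Glod5 had 0 counts under the P2X1-KO label and 81 under the WT label, and Echdc3 had 0 under the P2X1-KO label and 72 under the WT label.

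Nuclear and gene-control proteins were 9 members, 6 of them at 0 counts under the P2X1-KO label. C2cd4a, a nuclear protein known from pancreatic islets and endothelium, lies on chromosome 9 from 67830489 to 67832330 (minus strand). It had 0 counts under the P2X1-KO label and 229 (200 to 261), or 14.7 CPM, under the WT label, at least 43.5-fold lower. Tgif2, a homeobox repressor that restrains TGF-beta signalling, had 0 counts under the P2X1-KO label and 134 (112 to 159) under the WT label, at least 25.4-fold lower. It shares exonic sequence with 5430405H02Rik on the opposite strand, which had 33 counts under the P2X1-KO label and 56 under the WT label. Its relative Tgif1 was 1.94-fold higher under the P2X1-KO label (1.61 to 2.34). Zcchc14, a zinc-finger protein, had 0 counts under the P2X1-KO label and 132 (110 to 157) under the WT label, at least 25.1-fold lower, although Map1lc3b, which shares exonic sequence with it on the opposite strand, had 1002 counts under the P2X1-KO label and 1219 under the WT label. Dcun1d4, a factor of cullin neddylation, had 0 counts under the P2X1-KO label and 117 (96.8 to 140) under the WT label, at least 22.2-fold lower, and its 4 measured relatives all lay within 2-fold.

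Per3, a component of the circadian clock, had 2 counts under the P2X1-KO label and 70 under the WT label, whereas Per1 had 125 CPM under the P2X1-KO label and 135 CPM under the WT label and Per2 had 31.3 CPM under the P2X1-KO label and 31.9 CPM under the WT label. Magef1, a MAGE-family gene that GENCODE lists as a transcribed processed pseudogene, had 2 counts under the P2X1-KO label and 167 under the WT label, a ratio of 47.6 (13 to 396). The zinc-finger gene Zfp69 had 2 counts under the P2X1-KO label and 74 under the WT label, Zfp867 had 0 under the P2X1-KO label and 59 under the WT label, and Tceal8, of the TCEAL family, had 0 under the P2X1-KO label and 79 under the WT label. Tbata and Fam217a, for which no role is given here, had 0 counts under the P2X1-KO label and 99 and 56 under the WT label.

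**Figure D3:**
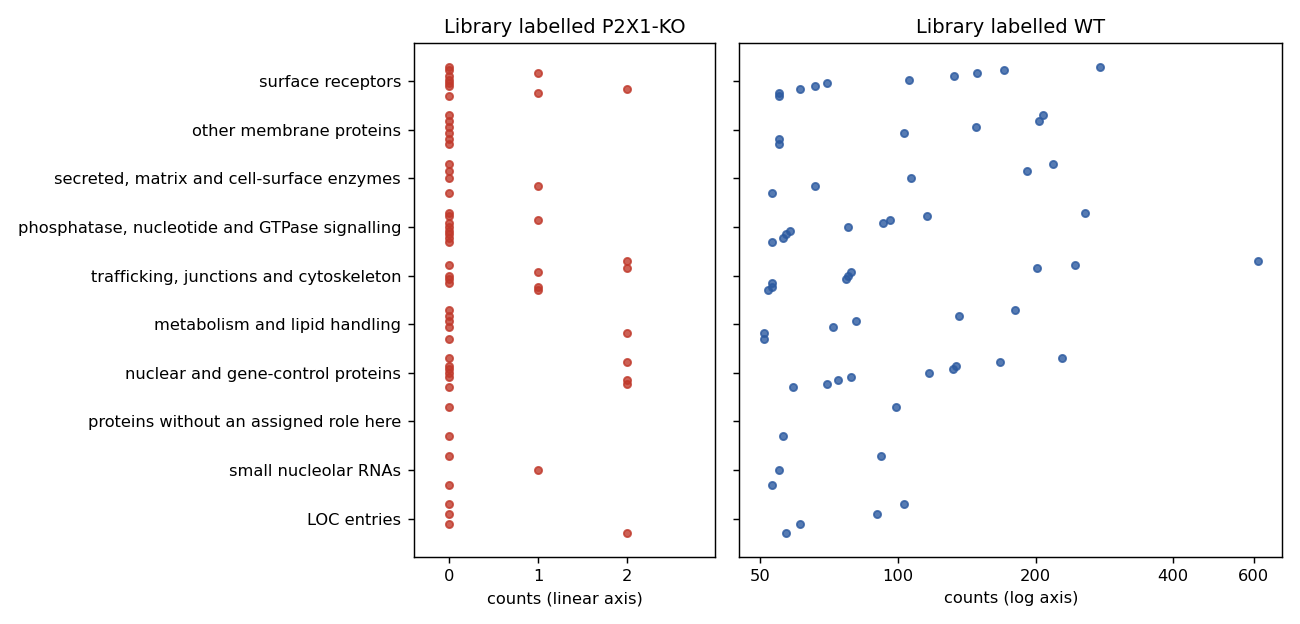
Counts of the 63 members by role group under the P2X1-KO label (left, linear axis) and under the WT label (right, log axis), 1 point per gene. The left panel holds 47 points at 0 and none above 2, and the right panel runs from 51 to 612.

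Small nucleolar RNAs, which guide chemical modification of ribosomal RNA and are cut from introns of host genes, were 3 members. Their sequences from GENCODE are shown because they are short enough to be given whole, each within a host gene that was itself measured. Capitals mark the box C where a match was found and the last CTGA, box D, in Snord69 and Snord19. In the H/ACA box RNA Snora41 they mark only the last match to the letters ACA. Another ACA overlaps it and begins earlier, so the marked letters need not be the ACA box.
Snora41, chr1:63179004-63179135, plus strand: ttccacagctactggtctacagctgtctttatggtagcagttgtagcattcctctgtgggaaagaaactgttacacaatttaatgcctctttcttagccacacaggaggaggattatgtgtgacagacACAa
Snord69, chr14:31014287-31014366, minus strand: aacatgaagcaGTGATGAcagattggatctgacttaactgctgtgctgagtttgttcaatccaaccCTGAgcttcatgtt
Snord19, chr14:31016206-31016281, minus strand: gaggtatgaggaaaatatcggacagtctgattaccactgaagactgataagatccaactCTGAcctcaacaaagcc
Snora41 had 0 counts under the P2X1-KO label and 92 under the WT label, while its host Eef1b2, a translation elongation factor gene, was 1.33-fold higher under the P2X1-KO label (1.29 to 1.36). Snord69 had 1 count under the P2X1-KO label and 55 under the WT label, and Snord19 had 0 under the P2X1-KO label and 53 under the WT label. Both lie in Gnl3, encoding the nucleolar protein nucleostemin, which was 2.48-fold lower (2.29 to 2.69), and annotated exons of Gnl3 overlap both of them in the same orientation, so reads of host and guide RNA may be mixed. Of 21 further Snora genes averaging 1 CPM or more, 4 were 2-fold or more lower and 0 2-fold or more higher, and of 31 further Snord genes 6 were lower and 0 higher by that measure. Per kilobase of exon, these 3 RNAs had the highest values of the members under the WT label, from 44.1 to 44.7 CPM per kb, ahead of C2cd4a at 10.5 and Gprasp2 at 8.65, and Vldlr had the lowest at 0.350. These 3 RNAs are only 76 to 132 bases long, and the rule asked each member for at least 50 counts under the WT label. Their place in that order therefore follows from the rule and their length.

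LOC entries, which the name rule kept, were 4 members. LOC102632465, which RefSeq lists as the long non-coding RNA Gm13391, had 0 counts under the P2X1-KO label and 103 under the WT label. LOC102633596, listed as the pseudogene Gm4247, had 0 under the P2X1-KO label and 90 under the WT label and lies within Zscan18 on the same strand, which had 0 under the P2X1-KO label and 45 under the WT label. LOC105247075 had 0 counts under the P2X1-KO label and 61 under the WT label, LOC108168281 had 2 under the P2X1-KO label and 57 under the WT label, and neither was matched to an annotation.

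Genes beside the members, read in the same 2 libraries and described without a test, were lower under the P2X1-KO label more often than the 12.8% of all genes. Of 67 distinct nearest protein-coding genes on either side of a member at that level, 17 (25.4%) were 2-fold or more lower and 5 (7.46%) 2-fold or more higher, with a median log2 difference of -0.57. Scaling by total counts in place of TMM moved the median of all genes by -0.17 and gave 59.8% lower and 40.2% higher among all genes 2-fold or more apart, against 47.5% and 52.5% with TMM. Under that scaling 34.3% of the flanking genes and 17.1% of all genes were 2-fold or more lower.

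The share fell with distance. At 1 bp to 50 kb from the nearest member, 17 of 84 protein-coding genes (20.2%) were 2-fold or more lower and 7 (8.33%) 2-fold or more higher, with a median log2 difference of -0.52. At 50 to 250 kb, 37 of 229 (16.2%) were lower and 22 (9.61%) higher, and the median was -0.13. At 250 kb to 1 Mb, 70 of 617 (11.3%) were lower and 72 (11.7%) higher, and the median was -0.10. Of these genes, 2 at 50 to 250 kb and 1 farther away met the count bounds but not the name rule. With genes kept only averaging 5 CPM or more, 9 of 69 within 50 kb (13%) were lower, beside 10.04% of all genes at that level. The 9 genes that overlap a member were counted apart, and 5 of them were lower, but where exons overlap their reads may not be separable from those of the member.

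**Figure D4:**
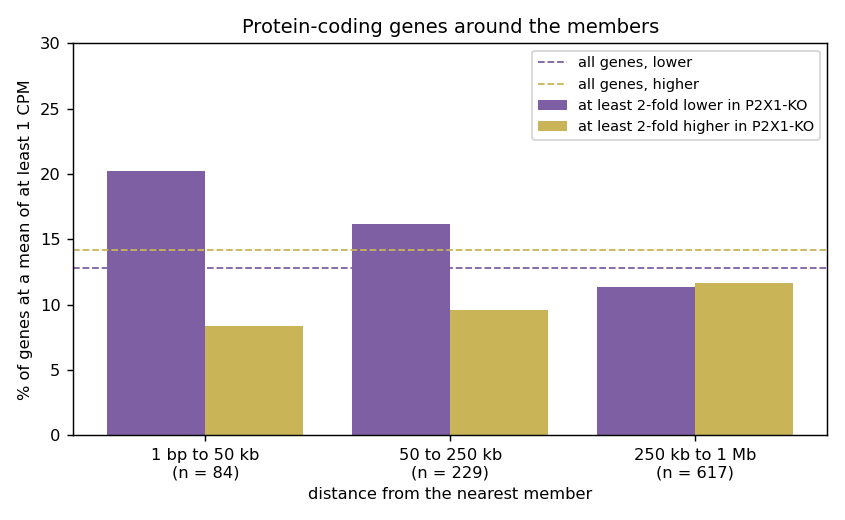
Share of protein-coding genes averaging 1 CPM or more that were 2-fold or more lower (purple) or higher (yellow) under the P2X1-KO label, by distance from the nearest member, with dashed lines for all genes at 12.8% lower and 14.2% higher. The share of lower genes is 20.2% within 50 kb, 16.2% to 250 kb and 11.3% to 1 Mb.

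Several members lay in stretches of lower genes, named here after their values were seen. Around Akp3 on chromosome 1, 5 of 7 genes within 250 kb averaging 1 CPM or more were 2-fold or more lower. Alpi, an alkaline phosphatase paralog 23367 bp away, had 7 counts under the P2X1-KO label and 155 under the WT label, 12.6-fold lower (5.98 to 31.9), and Ecel1, a protease gene, had 3 under the P2X1-KO label and 41 under the WT label, 7.79-fold lower (2.48 to 39.3). Next to them lie 2 subunit genes of the muscle acetylcholine receptor, which the name rule left out. Chrnd had 0 counts under the P2X1-KO label and 428 under the WT label, and Chrng had 0 under the P2X1-KO label and 51 under the WT label.

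C2cd4a had its paralog C2cd4b as a neighbour, 69559 bp away, with 3 counts under the P2X1-KO label and 292 under the WT label, a ratio of 55.5 (18.8 to 270). On its other side, Vps13c was 2.11-fold lower (1.82 to 2.45). Around Tmem198, Chpf, a chondroitin polymerising factor gene 225 bp away, was 4.99-fold lower (3.69 to 6.91), and the muscle genes Speg and Des were 6.49-fold (3.41 to 13.9) and 10.3-fold lower (5.27 to 22.8). On chromosome X, Gprasp2 and Tceal8 lie 324254 bp apart. Of 7 other genes on a list of the GASP and ARMCX family averaging 1 CPM or more, 3 were 2-fold or more lower, Bhlhb9, Armcx5 and Armcx1, and 1, Armcx4, was 4.53-fold higher (2.62 to 8.14). Bhlhb9 overlaps exons of Gprasp2 on the same strand, so its value may not be separate from that of the member.

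Single neighbours were also far lower beside other members. Col6a3, a collagen gene 71114 bp from Mlph, was 30.6-fold lower (15.4 to 71.2), with 8 counts under the P2X1-KO label and 429 under the WT label. Jph3, a junctophilin gene near Zcchc14, was 24.9-fold lower (9.56 to 92.5), Ptprr, a phosphatase gene near Tspan8, 12.3-fold lower (6.77 to 25), and Usp6nl, between Echdc3 and LOC102632465, 4.48-fold lower (3.52 to 5.76). Neighbours in the other direction were present too. Tmem51, 18086 bp from Kazn, was 10.3-fold higher (8.06 to 13.2), Lpl, encoding lipoprotein lipase and 225221 bp from Lzts1, was 54.7-fold higher (43.7 to 69.5), and Fgf11, 1746 bp from Tmem102, was 3.02-fold higher (2.38 to 3.85). A gene 2-fold or more lower lay within 250 kb of 35 members, and one 2-fold or more higher within that distance of 18. Over all genes, 12.8% were that much lower and 14.2% that much higher, and many windows held several genes. Each gene was counted for its nearest member only. No such count was made around other genes, so the numbers 35 and 18 have no background.

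**Figure D5:**
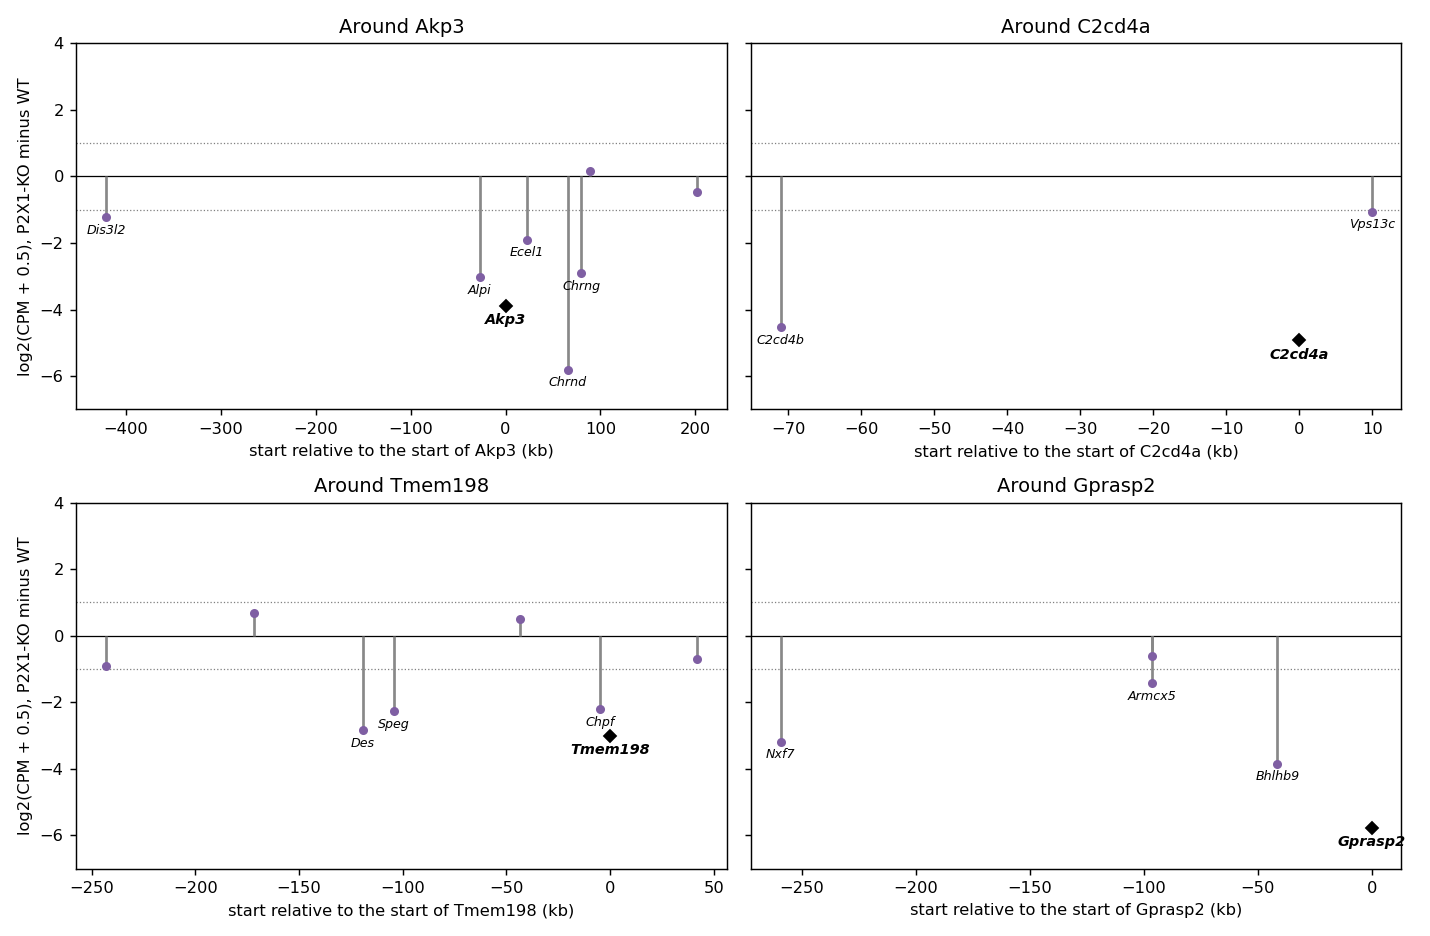
Log2 difference in CPM, P2X1-KO minus WT (vertical axis), of genes averaging 1 CPM or more that have the named member as their nearest one within 250 kb, by the distance between annotated starts (horizontal axis, kb). Diamonds mark the members, dots their neighbours, and dotted lines a 2-fold difference, and 5 of the 7 neighbours of Akp3 lie below the lower one.

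Genes of the same families, by symbol, were also compared. Of 746 genes that share a symbol stem with a member and average 1 CPM or more, 115 (15.4%) were 2-fold or more lower and 63 (8.45%) 2-fold or more higher, with a median log2 difference of -0.18, beside 12.8% lower, 14.2% higher and a median of -0.06 over all genes. The stems Tmem, Zfp and Fam, which join unrelated genes, supplied 565 of these. Without them, a choice made after the data were seen, 29 of 181 (16.0%) were lower and 17 (9.39%) higher. By total counts, 75.1% of the family genes 2-fold or more apart were lower, against 64.6% with TMM, and the same shares over all genes were 59.8% and 47.5%. Protein-coding members had a median exon length of 4540 bases, beside 4575.5 bases of 9256 protein-coding genes with at least 50 counts under the WT label.

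Marker lists of other cell types held no member, and several of their sums rested mostly on 1 gene. Of 12 neural markers, 10 had 0 counts under the P2X1-KO label and 7 under the WT label, and the myelin gene Mbp gave 68.4 of 69.6 CPM under the P2X1-KO label and 69.0 of 70.6 CPM under the WT label. Of 12 epithelial markers, 9 were at 0 under the P2X1-KO label and 7 under the WT label, and the keratin gene Krt18 gave 10.6 of 16.5 CPM under the P2X1-KO label and 10.8 of 12.1 CPM under the WT label. Of 10 endothelial markers, 6 were at 0 under the P2X1-KO label and 4 under the WT label, and Pecam1, also made by blood cells, gave 42.4 of 47.1 CPM under the P2X1-KO label and 12.3 of 19.8 CPM under the WT label. T and NK cell markers summed to 4.28 CPM under the P2X1-KO label and 2.57 CPM under the WT label.

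The 12 stromal and bone markers summed to 250.2 CPM under the P2X1-KO label and 95.6 CPM under the WT label. Of the 4 that averaged 1 CPM or more, 3 were 2-fold or more higher under the P2X1-KO label and 0 2-fold or more lower. Col1a1, a chain of type I collagen, had 149 CPM under the P2X1-KO label and 0.962 CPM under the WT label, a 155-fold higher level (93.8 to 278). Col1a2 had 213 counts under the P2X1-KO label and 0 under the WT label, and Col3a1 had 264 under the P2X1-KO label and 0 under the WT label. The remaining gene, Pdgfrb, a growth factor receptor of mesenchymal cells, had 47.1 CPM under the P2X1-KO label and 93.1 CPM under the WT label. It was 1.98-fold lower (1.77 to 2.21).

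Markers of mast cells, basophils and eosinophils summed to 246 CPM under the P2X1-KO label and 52.1 CPM under the WT label. Among them, the eosinophil gene Prg2 had 129 CPM under the P2X1-KO label and 0.513 CPM under the WT label, whereas the basophil gene Mcpt8 had 23.0 CPM under the P2X1-KO label and 34.0 CPM under the WT label. Megakaryocyte and platelet markers summed to 41.0 CPM under the P2X1-KO label and 10.1 CPM under the WT label. Of these sums, Itgb3 gave 18.01 CPM under the P2X1-KO label and 5.20 CPM under the WT label, and Vwf 16.8 and 1.99 CPM. Pf4, Ppbp and Gp1ba had 0 counts in both libraries. Dendritic cell markers summed to 341 CPM under the P2X1-KO label and 146 CPM under the WT label. Irf8 alone gave 170 CPM under the P2X1-KO label and 25.9 CPM under the WT label. Flt3 went the other way, at 47.4 CPM under the P2X1-KO label and 71.96 CPM under the WT label. Erythroid markers summed to 62.8 CPM under the P2X1-KO label and 168 CPM under the WT label, of which Tfrc, the transferrin receptor of dividing cells, gave 60.7 CPM under the P2X1-KO label and 167 CPM under the WT label. The part of any of these cell types in the values of the members was not tested.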

How the data were processed

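RNA from 2 sorted leukaemia samples was sequenced, 1 per group. The authors deposited whole-number counts per gene symbol, not normalized. The submitters' processing notes name HISAT2 2.0.4 as the aligner and mm10 as the build. The counting step, its annotation, strand setting and filters were not given in the sources used here. Counts were scaled by TMM in edgeR 4.0.16 under R 4.3.3, giving CPM. Log2 differences use log2(CPM + 0.5), P2X1-KO minus WT, which understates differences of low genes. Ratios carry exact Clopper-Pearson intervals given the sum, and counts exact Poisson intervals, both 95% and computed with scipy 1.17.1. A count of 0 was set at a floor of 3 counts, or 0.338 CPM under the P2X1-KO label. The scaling was also run on simulated Poisson counts in which a small set of genes was changed, evenly up and down. In the data a far larger share of genes lay 2-fold apart. The simulation therefore cannot show how well TMM holds for these 2 libraries.

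The name rule left out 37 of 101 entries within the count bounds, namely 14 Gm entries, 10 Rik entries, 1 pseudogene, 8 of listed families and 4 listed genes. Of the 64 members, 1 is not reported here, and values given for 63 members leave it out. Of these, 61 were matched to GENCODE M21, which is on the same assembly. Full values are given for the 20 of the 63 members whose interval bound lies farthest from no change, and counts for the others. Family genes share a symbol stem before a final number. The members, lists and rules were chosen with earlier results of these data known. Role groups, the stretches of neighbours and several relatives named were chosen after values were seen. Alternatives were other scalings, pseudocounts, minimum levels and count bounds.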

Additional observations from a re-analysis of the deposited data

How the results depend on the processing

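The number of genes within the rule depends on its bounds. In place of 64 it was 117 with up to 5 counts allowed under the P2X1-KO label, 48 with 0 required, 173 with at least 25 counts under the WT label, 26 with at least 100, 36 with WT counts first scaled to the total of the P2X1-KO-labelled library, and 101 with no name left out. The median log2 difference of the 63 members followed the pseudocount, at -5.56 with 0.1 CPM and -1.82 with 2 CPM, since most have 0 counts in 1 library, and it was -4.79 over the 13 members averaging 5 CPM or more. It ranged from -3.54 to -3.42 over the other scalings. Among genes averaging 5 CPM or more, those 2-fold or more lower numbered 70 of 571 family genes, 1053 of all 10483 genes and 9 of 69 genes within 50 kb of a member. As shares these were 12.3% of family genes, against 15.4% at 1 CPM or more, 10.04% of all genes, against 12.8%, and 13% within 50 kb, against 20.2%, and the cause was not tested. Without the Tmem, Zfp and Fam stems the family genes numbered 29. The count of flanking genes stayed between 12 and 23 under each scaling, pseudocount and minimum tried. The comparisons at 50 kb and without the 3 stems were added after the data were seen. No paired analysis was possible because each group has 1 library, and for the same reason no replicate could be left out. Depth limits the low side: 0 counts under the P2X1-KO label allow up to 3.69 counts, or 0.415 CPM, by the exact interval.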
